A study of Mus musculus with 3 samples.

Results

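T_cell_4 was the smallest of 4 numbered T cell clusters among immune cells sorted from mouse kidney, and its members were the cells whose deposited cluster name was T_cell_4. They numbered 161 of 20266 cells in 23 clusters, which is 0.794% of all cells and 3.07% of the 5236 cells in T_cell_1 to T_cell_4. The cells were CD45+ leukocytes from untreated wild-type male C57BL/6J mice aged 10 weeks, taken from 3 compartments dissected by hand and digested with enzymes, namely the cortex, the outer medulla (OM) and, deepest, the inner medulla (IM), and profiled by droplet single-cell RNA sequencing. Kidneys were handled in facilities in Aachen, Bonn and Hamburg, so the table held 9 libraries, each a compartment of a facility, and the facility was the replicate (n = 3). How many mice each library pooled was not given in the sources used here. From cortex, OM and IM, T_cell_4 held 8, 13 and 25 cells in Aachen, 23, 2 and 16 cells in Bonn, and 28, 27 and 19 cells in Hamburg.

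T cells recognise antigen through a receptor of either alpha and beta or gamma and delta chains, and the CD3 proteins carry its signal into the cell. A class of T cells, called type 17, responds to interleukin-23 and interleukin-1 and secretes interleukin-17, and it includes helper cells with an alpha-beta receptor as well as gamma-delta cells. In mice, gamma-delta cells bearing the Vγ6 chain (Tcrg-V6) paired with the Vδ1 chain (Trdv4) arise in the fetal thymus, carry a nearly invariant receptor, settle in barrier and other tissues, and are known producers of interleukin-17.

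The germline V segments of these chains are shown because their transcripts separated T_cell_4 from the other T cell clusters. The last 240 bases of each are given 5′ to 3′, with the final 20 bases, the end that joins the next segment during rearrangement, in capitals. Tcrg-V6 lies at chr13:19190356-19190929 and Trdv4 at chr14:54074905-54075515, both on the plus strand of GRCm38 (GENCODE annotation). Among 175 other annotated V genes, the longest run that any shared with the Tcrg-V6 transcript was 14 bases (Trdv5), and for Trdv4 it was 13 bases (Trav20).
Tcrg-V6: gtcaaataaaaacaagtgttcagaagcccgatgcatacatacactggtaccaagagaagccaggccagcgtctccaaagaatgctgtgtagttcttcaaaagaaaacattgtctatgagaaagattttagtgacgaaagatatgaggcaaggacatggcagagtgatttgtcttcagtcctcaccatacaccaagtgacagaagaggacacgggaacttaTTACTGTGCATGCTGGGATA
Trdv4: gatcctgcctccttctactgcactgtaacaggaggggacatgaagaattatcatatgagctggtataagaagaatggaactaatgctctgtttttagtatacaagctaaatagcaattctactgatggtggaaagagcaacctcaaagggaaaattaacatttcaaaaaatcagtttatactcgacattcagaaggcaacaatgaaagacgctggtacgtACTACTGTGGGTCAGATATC

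Depth differed between facilities, and so did the set of genes with any counts. T_cell_4 cells had a median of 1064 UMIs (transcript molecules) per cell in Aachen, 4458 in Bonn and 4617 in Hamburg, against 927 to 1160, 3042 to 4194 and 3094 to 4115 in T_cell_1 to T_cell_3. In Aachen, 268 of 268 T cell receptor genes and 392 of 393 immunoglobulin genes stood at 0 in every cell of any type, so receptor transcripts are described from Bonn and Hamburg. Il17a, Il17f and Il22 stood at 0 in every Bonn cell of any type, for which the 180761 UMIs of T_cell_4 allow up to 16.6 CPM by counting error, where CPM is the count scaled to a total of 1000000 UMIs. The Aachen cortex (8 cells) and OM (13 cells) libraries held none of Il23r, Il1r1, Cd163l1 and Il17a, so in Aachen these genes were seen in IM only. Of the T_cell_4 cells, 2 shared a barcode sequence with another cell of the series and 0 with another T_cell_4 cell.

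T_cell_4 carried the T cell markers at levels like those of the other clusters, and its own leading genes were genes of type 17 and gamma-delta T cells. Cd3e, a CD3 chain, was at 649 CPM in Aachen, 1272 in Bonn and 1215 in Hamburg, or 1045 ± 344 CPM (SD, n = 3 facilities), beside means of 963, 981 and 579 CPM in T_cell_1, T_cell_2 and T_cell_3. Cd3d was at 735, 963 and 748 CPM in the same facilities, against means of 886, 973 and 770 CPM. After each cell was thinned to 500 UMIs, which kept 158 of 161 cells, Cd3e was found in 25.6%, 51.2% and 43.2% of T_cell_4 cells in Aachen, Bonn and Hamburg, and in 0.490%, 0.308% and 0.882% of cells of the B cell cluster B_cell_1. Without thinning the T_cell_4 shares were 54.3%, 97.6% and 95.9%. The clusters were made from these same genes, so the levels of one cluster beside another are a description and were not tested.

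The cytokine receptor genes of type 17 cells were close to absent from the other T cell clusters. Il23r, a subunit of the interleukin-23 receptor, was at 68.3 CPM in Aachen, 155 in Bonn and 157 in Hamburg, and Il1r1, the interleukin-1 receptor, at 51.3, 188 and 142 CPM. The Aachen values rest on 4 UMIs of Il23r and 3 of Il1r1, all in the IM library. Both genes had fewer than 5 UMIs in any of T_cell_1, T_cell_2 and T_cell_3, so no fold is given. Il17re, a subunit of the receptor for interleukin-17C, stood at 117 ± 15.2 CPM and Ltb4r1, a leukotriene B4 receptor, at 277 ± 14.6 CPM, 41.3-fold above T_cell_1. Blk, a Src-family kinase, reached 253 ± 42.7 CPM in T_cell_4 and 8.49 CPM at most in the other T cell clusters, though B cells also express it. Ccr6, a chemokine receptor of interleukin-17-producing cells, stood at 94.5 ± 77.2 CPM, lowest in Aachen (17.1 CPM).

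The cytokine itself differed strongly between facilities. Il17a was at 205 CPM in Aachen, where 5 of 46 cells held it, and at 1215 CPM in Hamburg, where 29 of 74 cells did. Over the whole series Aachen held 14 UMIs of Il17a and Hamburg 508, and 12 and 425 of these were in T_cell_4. Hamburg T_cell_1 to T_cell_3 together held 75.9 UMIs, in 8 of 889 T_cell_1 cells, 0 of 640 T_cell_2 cells and 1 of 489 T_cell_3 cells, and the same clusters of Aachen held 0. Il22 was found in 11 T_cell_4 cells, all of Hamburg, and those cells accounted for 131 of the 142 Il22 UMIs of the series.

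Of the 15 measured type 17 genes, 13 were at least 2-fold above the highest other T cell cluster, 0 were 2-fold below the lowest, and the median log2 ratio to the highest was 4.13. Over all 3664 genes that reached 50 CPM in a T cell cluster, 199 were 2-fold above, 113 were below, and the median was -0.07. Rora and Maf, transcription factors shared with other helper cells, were the exceptions on that list, with means of 300 and 422 CPM against 174 and 244 CPM in T_cell_1. Of 10 gamma-delta genes at that level, 7 were at least 2-fold above, with a median log2 ratio of 3.48. A gene could reach the 50 CPM level through T_cell_4 alone, and the clusters were made from these genes. The counts for both lists therefore describe the cluster and were not tested.

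**Figure D1:**
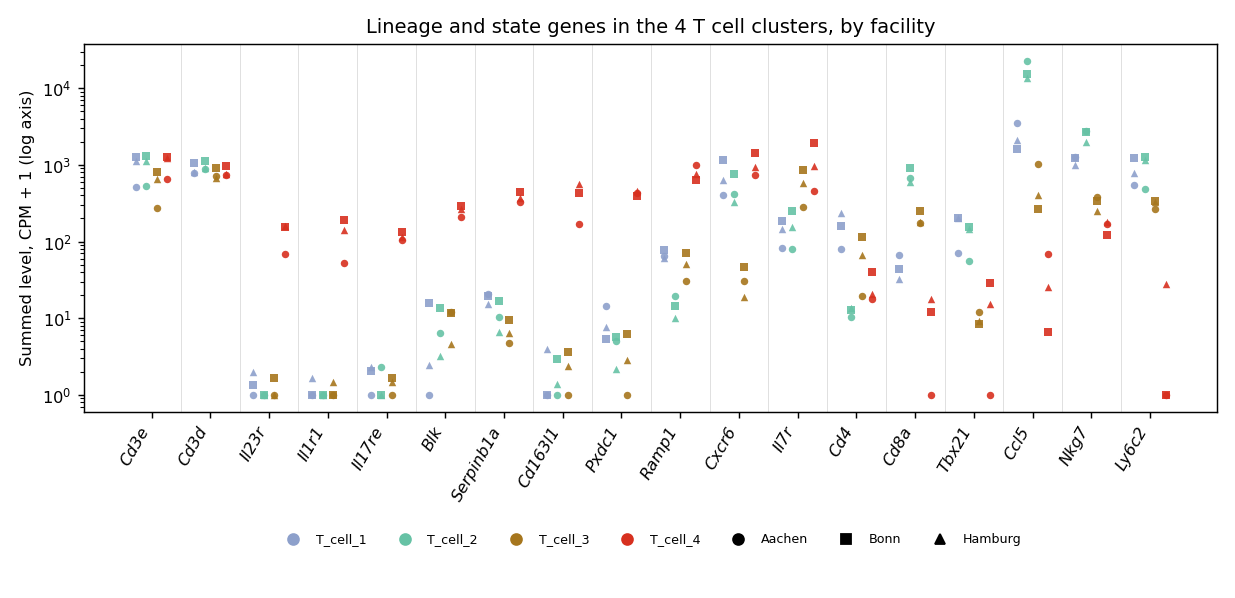
Summed level in each T cell cluster by facility, as CPM + 1 on a log axis. Colour marks the cluster and shape the facility. Il23r, Il1r1, Il17re, Blk, Serpinb1a, Cd163l1 and Pxdc1 lay higher in T_cell_4 than in any other cluster in each facility, whereas Cd3e and Cd3d overlapped between clusters. The Aachen T_cell_4 points of Il23r and Il1r1 rest on 4 and 3 UMIs.

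Genes that reached 50 CPM in T_cell_4 in each facility, list members included, were also ranked by the facility in which the ratio to the highest other T cell cluster was nearest to 1. Genes at 0 in a facility could not enter, among them the receptor genes and Il17a. In Aachen, 952 genes at 0 in every cell had 50 or more UMIs in both other facilities. Cd163l1, which encodes the scavenger receptor SCART1 of gamma-delta cells and is on the gamma-delta list, led the 1845 genes that reached 50 CPM in T_cell_4 in each facility, at 171 CPM in Aachen, 431 in Bonn and 562 in Hamburg against 1.34 CPM at most elsewhere. Pxdc1 followed at 425 ± 37.3 CPM, 52.5-fold above T_cell_1, and Serpinb1a, a protease inhibitor, was at 379 ± 59.5 CPM, 21.5-fold above. Ramp1, a co-receptor for the neuropeptide CGRP, was at 1008, 631 and 749 CPM, 11.9-fold above T_cell_1, and its relative Ramp3 was at 145 ± 65.8 CPM. Others among the 20 with the highest ratio were Kcnk1, Plxnd1, Tmem176a, Nr1d1, Igf1r, Actn2, Sdc1, Lmo4 and 5830411N06Rik, the last of which encodes SCART2. Several rested on few UMIs in Aachen, such as 4 for Kcnk1, 3 for Sdc1 and 4 for 5830411N06Rik. The Aachen value of Cd163l1 rested on 10 UMIs, all in the IM library. In all, 56 of these 1845 genes were at least 2-fold above the highest other cluster in each facility. The same rule gave 3, 7 and 13 genes in T_cell_1, T_cell_2 and T_cell_3. These counts do not compare how distinct the clusters were. The 50 CPM floor was applied in the cluster where the gene was high. Aachen T_cell_4 also held only 58519 UMIs, against 753313, 745463 and 266679 in T_cell_1, T_cell_2 and T_cell_3.

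Surface and cytoskeletal genes of tissue-dwelling lymphocytes were abundant but mostly shared with other clusters. Cxcr6, a chemokine receptor of resident lymphocytes, was at 735, 1433 and 940 CPM in Aachen, Bonn and Hamburg, and its mean of 1036 ± 359 CPM stood beside 730 in T_cell_1, 499 in T_cell_2 and 31.2 in T_cell_3. S100a4 was 3.07-fold above T_cell_2 at 1585 ± 324 CPM, and Capg, an actin-capping protein, was 5.16-fold above T_cell_1 at 831 ± 130 CPM. Il7r, the interleukin-7 receptor, was at 461, 1914 and 973 CPM, against 285, 864 and 579 CPM in T_cell_3, the highest of the others. Itga1, an integrin chain of resident T cells, was nearly missing at 1.87 CPM, against 87.0 and 88.8 CPM in T_cell_1 and T_cell_2. Of 20 tissue residency genes at the 50 CPM level, 2 were 2-fold above the highest cluster and 0 were below the lowest.

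Many cytotoxic and CD8 genes and some naive genes were low or missing. Ccl5, a chemokine of effector T cells, was at 68.3 CPM in Aachen, 5.53 in Bonn and 24.3 in Hamburg, against a mean of 17222 CPM in T_cell_2 and 570 CPM in T_cell_3, the lowest of the others. Nkg7, a cytotoxic granule gene, was at 157 ± 30.6 CPM, against 1162, 2456 and 322 CPM in T_cell_1, T_cell_2 and T_cell_3. Klrd1, Eomes, Gzmk, Lag3 and the proliferation marker Mki67 had 0 UMIs, which allows up to 5.09 CPM over the 588908 UMIs of the cluster. Tbx21, the transcription factor of type 1 responses, was at 13.9 ± 13.8 CPM, beside 157 CPM in T_cell_1. Of 24 type 1 and cytotoxic genes, 0 were 2-fold above the highest cluster and 8 were 2-fold below the lowest. Of 12 naive and central memory genes, 5 were 2-fold below the lowest. The summed level of that list was 2425 CPM, against 1982, 2571 and 6933 CPM in T_cell_1, T_cell_2 and T_cell_3, so as a sum only T_cell_3 stood well above. Ccr7, a chemokine receptor for lymph node homing, was at 10.6 ± 9.22 CPM, against 660 CPM in T_cell_3.

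Neither co-receptor marked the cluster. Cd8a was at 9.29 ± 8.54 CPM and Cd8b1 at 8.24 ± 7.26 CPM, both below the 47.0 and 72.7 CPM of T_cell_1, the lowest other cluster. Cd4 was at 25.2 ± 11.8 CPM, below the 157 and 66.5 CPM of T_cell_1 and T_cell_3 but above the 11.4 CPM of T_cell_2. Foxp3, the transcription factor of regulatory T cells, was at 9.22 CPM, with its 5 UMIs all in Bonn. Gata3, a type 2 transcription factor, was at 108 ± 10.4 CPM, near the 124 CPM of T_cell_1. Ly6c2, Gm8369, Gramd3, Ms4a4b, Il21r, Ifi27l2a, Gimap6 and Gimap7 completed the 10 genes with the lowest ratio, and 15 of 1184 eligible genes were at least 2-fold below the lowest other cluster in each facility.

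T_cell_4 held transcripts of both gamma-delta and alpha-beta receptors. Trdv4 was at 1134 CPM in Bonn and 869 in Hamburg, 102-fold above T_cell_1, and made up 95.8% and 94.7% of the UMIs of delta V genes. Tcrg-V6 was at 575 and 402 CPM, 120-fold above T_cell_1, and made up 61.9% and 61.6% of gamma V UMIs, whereas Trgv2 led the gamma V genes of T_cell_1, T_cell_2 and T_cell_3 in both facilities. The delta constant gene Trdc was at 183 and 134 CPM, 6.77-fold above T_cell_2, and the gamma constant gene Tcrg-C1 at 277 and 331 CPM, 13.2-fold above T_cell_1. The alpha constant gene Trac was at 138 and 186 CPM, against means of 337 CPM in T_cell_1 and 149 CPM in T_cell_3. Trbc2, a beta constant gene, was at 155 and 297 CPM, against means of 261 to 332 CPM.

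Of the 115 Bonn and Hamburg cells, 63 held a UMI of both a gamma or delta gene and an alpha or beta constant gene, 21 held gamma or delta only, 25 held an alpha or beta constant gene only, and 6 held neither. These groups had 17, 10, 10 and 4 of the 41 Bonn cells and 46, 11, 15 and 2 of the 74 from Hamburg. Gamma genes were also transcribed in the other T cell clusters, for which this split is not given. T_cell_1 held 594 UMIs of Trgv2. Tcrg-C1 was found in 7.84% and 3.26% of Bonn and Hamburg T_cell_1 cells, against 56.1% and 41.9% of T_cell_4 cells. The split alone therefore does not set T_cell_4 apart. In B_cell_1, which should lack both chains, Trac was found in 0.616% and 2.29% of Bonn and Hamburg cells and Trbc2 in 0.431% and 2.47%, at median depths of 2747 and 2548 UMIs, whereas 31.7% and 45.9% of T_cell_4 cells held Trac. Cd163l1 was found in 24 of the 63 cells with both kinds of chain, 9 of the 21 with gamma or delta only, and 0 of the 25 with an alpha or beta constant gene only. Il23r was found in 31, 12 and 9 of these cells, so it was present on each side. Cd4 was found in 6 of the 25 cells with alpha or beta only in 0 of the 63 cells with both kinds, and in 0 of the 21 with gamma or delta only.

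**Figure D2:**
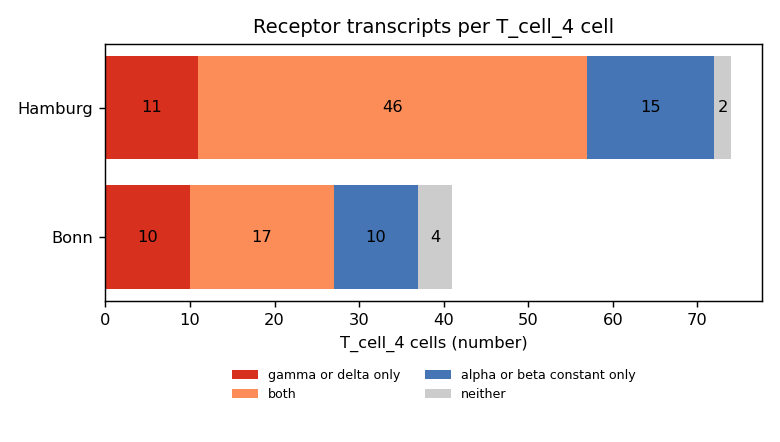
Number of T_cell_4 cells in Bonn and Hamburg by the receptor transcripts they held. Cells with both kinds of chain were the largest group in each facility (17 of 41 and 46 of 74), and 10 and 15 cells held an alpha or beta constant gene only.

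Cells that held both Tcrg-V6 and Trdv4 were a minority of T_cell_4. There were 10 among the 41 Bonn cells and 20 among the 74 Hamburg cells, or 30 of 115 (26.1%), while of T_cell_1 to T_cell_3 only Hamburg T_cell_1 had any, 2 of 889 cells (0.225%). Of these 30 T_cell_4 cells, 29 held Cd163l1, against 2 of the 80 cells with neither V gene. Il23r was found in 15 of the 30 and 38 of the 80. Il17a stood at 0 in every Bonn cell. In Hamburg it was found in 13 of the 20 cells with both V genes and 14 of the 50 with neither. Trac was found in 3 of the 30 and 42 of the 80, and Cd4 in 0 and 7. Trbc2, a constant region of the beta chain, was found in 17 of the 30 and 43 of the 80, so the 2 sets were close in it. Trav1, the alpha V gene of mucosal-associated invariant T cells, was found in 9 T_cell_4 cells with 17 UMIs.

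Several other genes divided the cells along the same line in both facilities. Taking the log2 ratio of CPM + 20 between the cells with both V genes and the other T_cell_4 cells, Cd163l1 was 4.15 in Bonn and 5.15 in Hamburg. Pdcd1, the inhibitory receptor PD-1, was higher by 3.65 and 2.72 log2, Cd247, the CD3 zeta chain, by 1.76 and 2.11, Blk by 1.37 and 1.37, and Il1r1 by 1.89 and 0.93. On the other side were Lck, the kinase that starts alpha-beta receptor signalling (log2 ratios of -4.46 and -3.61), Cd40lg, the T cell help ligand (-3.25 and -4.30), Nkg7 (-3.19 and -3.67), 5830411N06Rik (-2.63 and -3.61), Ramp3 (-2.18 and -2.43) and Icos (-2.13 and -1.96). Il23r (-0.01 and 0.42) and Cd3e (0.16 and -0.05) were near even. So the 2 scavenger receptor genes that marked the cluster as a whole lay on opposite sides of the division, Cd163l1 in the cells with Tcrg-V6 and Trdv4 and 5830411N06Rik in the others. These genes were picked after their values were seen, in 30 cells, and were not tested.

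**Figure D3:**
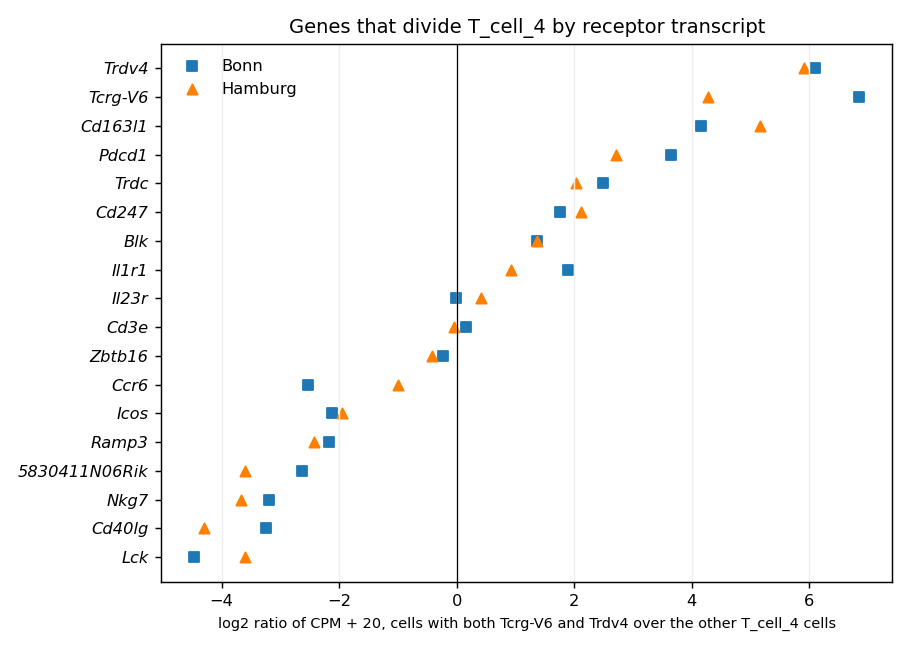
Log2 ratio of CPM + 20 between T_cell_4 cells that held both Tcrg-V6 and Trdv4 and the other T_cell_4 cells, for Bonn (squares) and Hamburg (triangles). Cd163l1, Pdcd1 and Cd247 lay to the right in both facilities, Lck, Cd40lg and Nkg7 to the left, and Il23r and Cd3e nearer to 0.

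The promoters of Il17a and Il23r are shown because AGGTCA is the core element that many nuclear receptors bind and both genes were among those that set T_cell_4 apart. The windows run from 250 bases before to 50 bases after the gene start (RefSeq, GRCm38.p6), 5′ to 3′ along the gene, with AGGTCA or its reverse complement TGACCT in capitals. Il17a lies on the plus strand (chr1:20730655-20730954) with 1 match, and Il23r on the minus strand (chr6:67491806-67492105) with 2. Of the 17 genes with a window among the 20 leading ones, 5 held the motif on either strand, namely Il23r, Plxnd1, Igf1r, Actn2 and 5830411N06Rik, against 18.1% of all 27025 genes. A match of these letters is a description of the window only.
Il17a: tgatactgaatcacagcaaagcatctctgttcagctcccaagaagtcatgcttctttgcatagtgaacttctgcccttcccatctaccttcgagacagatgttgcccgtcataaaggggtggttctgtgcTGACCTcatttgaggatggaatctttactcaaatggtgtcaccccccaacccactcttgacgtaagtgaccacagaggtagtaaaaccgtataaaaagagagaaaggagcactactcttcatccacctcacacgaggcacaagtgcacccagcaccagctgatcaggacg
Il23r: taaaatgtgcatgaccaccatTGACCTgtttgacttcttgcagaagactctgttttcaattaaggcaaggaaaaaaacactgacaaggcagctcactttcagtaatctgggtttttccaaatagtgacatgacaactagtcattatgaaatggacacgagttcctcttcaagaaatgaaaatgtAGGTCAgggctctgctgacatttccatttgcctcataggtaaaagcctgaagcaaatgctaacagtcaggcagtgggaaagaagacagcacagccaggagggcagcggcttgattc

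The share of T_cell_4 among T cells was compared between medulla and cortex, with the facility as replicate. Of T_cell_1 to T_cell_4, T_cell_4 made up 1.89%, 2.93% and 3.71% in Aachen cortex, OM and IM, 1.92%, 1.69% and 5.50% in Bonn, and 2.81%, 5.92% and 2.97% in Hamburg. IM thus had the highest share in Aachen and Bonn, and OM did in Hamburg. The mean of OM and IM was above cortex in 3 of 3 facilities, by 1.43, 1.67 and 1.64 percentage points (mean 1.58), and an exact two-sided permutation test within facilities gave p = 0.222 (0.444 adjusted over both shares tested), where the smallest p the design allows is 0.037. The difference was therefore not shown to exceed the spread between compartments. Of all sorted immune cells, T_cell_4 made up 0.782 ± 0.315% in cortex, 0.592 ± 0.440% in OM and 0.994 ± 0.186% in IM (SD, n = 3), and medulla exceeded cortex by 0.0115 points (exact permutation p = 0.926), higher in 1 of 3 facilities. The Bonn OM share rests on 2 cells, with an exact 95% binomial interval of 0.206% to 5.99% among T cells, and such intervals cover counting error only.

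**Figure D4:**
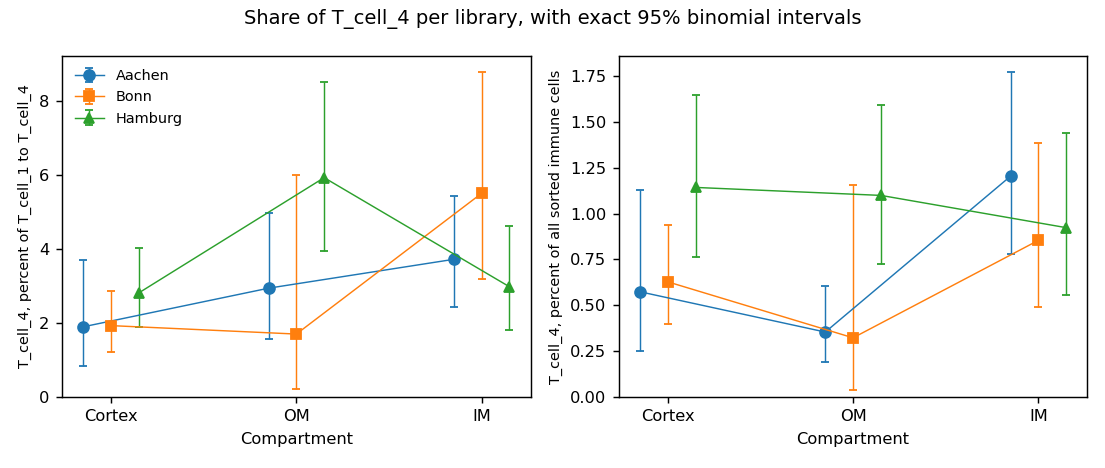
T_cell_4 as a percent of T_cell_1 to T_cell_4 (left) and of all sorted immune cells (right) in each library, with exact 95% binomial intervals, and lines joining the compartments of a facility. On the left the highest point was IM in Aachen (3.71%) and Bonn (5.50%) and OM in Hamburg (5.92%).

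Gene levels were compared between compartments within T_cell_4 on counts summed per library, and most lineage genes passed no threshold. The fit held the 7 libraries with at least 10 T_cell_4 cells, leaving out Aachen cortex and Bonn OM, so Hamburg alone had all 3 compartments. By edgeR's quasi-likelihood test with facility as block, 5 of 1779 genes tested (0.281%) differed between medulla and cortex at an adjusted p under 0.05, 2 higher (0.112%) and 3 lower (0.169%). OM differed from cortex in 5 genes (0.281%), of which 2 were higher (0.112%) and 3 lower (0.169%). IM differed from cortex in 3 genes (0.169%), with 2 higher (0.112%) and 1 lower (0.0562%). OM differed from IM in 4 genes (0.225%), with 2 higher and 2 lower (0.112% each). Without the Aachen OM library, which held no Il23r or Cd163l1, the counts were 1, 1, 0 and 0, and the gene that remained in both was Nkg7 (edgeR adjusted p = 0.0289 and 0.0448). Cd3e (log2 fold change of medulla over cortex -0.10, SE 0.31) and Il23r (0.10, SE 0.42) did not pass. Of 12 type 17 genes tested in medulla against cortex, 0 were higher, 1 was lower and the median log2 fold change was 0.10, beside -0.003 over all genes tested.

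Nkg7 kept its call under more alternative settings than any other gene called. It was at 340, 210 and 87.4 CPM in Aachen cortex, OM and IM, 195, 0 and 15.9 in Bonn, and 349, 0 and 134 in Hamburg. Cortex was the highest compartment in each facility. But the Aachen cortex value was 5 UMIs in 2 of 8 cells, and Bonn OM held 2 cells. Both of these libraries were outside the fit, so Aachen gave the test no cortex. Nkg7 fell by 3.23 on the log2 scale in medulla (SE 0.54, edgeR adjusted p = 0.000157) and fell by 4.51 in OM against cortex (SE 0.79, adjusted p = 0.000615). These calls held in 7 of 9 alternative settings each, but not by DESeq2 or without the facility block. After thinning to 500 UMIs Nkg7 did not pass the filter on low counts and was not tested. It was found in 24 of 161 cells with 95 UMIs, and in 0 of the 27 Hamburg OM cells. Within T_cell_4, Nkg7 lay on the side of the cells without Tcrg-V6 and Trdv4, and cells with both V genes were 7 of 28, 12 of 27 and 1 of 19 in Hamburg cortex, OM and IM. The part of that make-up in the Nkg7 result was not tested.

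The heat shock genes Hspa1b and Hspa1a, which encode inducible HSP70 and share near-identical sequence, were higher in OM. Hspa1b was at 545, 735 and 262 CPM in Aachen cortex, OM and IM, 204, 1473 and 876 in Bonn, and 2379, 5453 and 2570 in Hamburg. OM was the highest compartment in each facility, although the Bonn OM value comes from 2 cells outside the fit. The Aachen values rest on 8, 7 and 9 UMIs in cortex, OM and IM, and Aachen cortex was also outside the fit. Only Hamburg had both OM and cortex in the fit. Against cortex, Hspa1b rose by 1.61 log2 in OM (SE 0.33, adjusted p = 0.00532) and Hspa1a by 1.501 (SE 0.33, adjusted p = 0.00927, edgeR), and Hspa1b rose by 1.25 in medulla (adjusted p = 0.0128). Of 10 heat shock genes tested, these were the 2 that passed in OM, and each of these calls held in 1 of 10 alternative settings, without Aachen.

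The calls of Il22, Cxcl2, Ccl4, Trbv1 and Trbv16 rested on few cells. Il22 was at 512, 475 and 11.5 CPM in Hamburg cortex, OM and IM and at 0 elsewhere, in 6, 4 and 1 cells. It fell by 5.18 log2 in IM against cortex (edgeR adjusted p = 0.000105), by 2.66 in medulla (adjusted p = 0.00807), and was higher in OM than IM by 5.03 (adjusted p = 0.000373). These calls held in 4, 3 and 4 of 8 alternative settings. Cxcl2, a neutrophil-attracting chemokine, was likewise found in Hamburg alone, in 14 cells, and was 2.22 log2 higher in OM than IM, a call that held in 1 of 10. Ccl4 fell by 3.91 in OM against cortex, with 46.9% of its UMIs in 1 Aachen IM cell, and the call held in 1 of 8. Trbv1 fell by 2.09 log2 in medulla, fell by 3.39 in OM, and was found in 9 cells, and each call held in 3 of 9. Trbv16 rose by 2.25 in IM and was lower in OM than IM by -7.42 log2, in 7 cells, and these calls held in 1 and 4 of 8. Trbv1 falls outside the rule for named genes and is given because it passed. Junb, an immediate early gene found in 138 cells, was lower in OM than IM by -1.19 log2 (edgeR adjusted p = 0.00472), and this call held in 0 of 10 alternative settings, where the fold ran from -1.30 to -0.30 log2 and the smallest adjusted p was 0.217.

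H2-Eb1 was higher in medulla and Ifi27l2a in IM, in calls that held in 2 and 4 of 9 alternative settings. H2-Eb1, an MHC class II gene, was at 204, 1260 and 991 CPM in Aachen cortex, OM and IM, 0, 0 and 319 in Bonn, and 61.9, 193 and 80.9 in Hamburg, and rose by 2.48 log2 in medulla (SE 0.58, edgeR adjusted p = 0.0240), or by 1.08 without Bonn. It was found in 24 cells, and in each Bonn and Hamburg library that held it 1 cell gave 85% or more of its UMIs. Of 14 B cell markers, a list that includes MHC class II genes, 13 had counts in T_cell_4 and Pax5 was at 0. Their summed level was 232 to 1033 CPM in the cortex libraries, 0 to 5039 in OM and 617 to 7521 in IM. Of 14 macrophage and monocyte markers, 13 had counts and Fcgr1 was at 0, with sums of 325 to 749, 295 to 3885 and 378 to 3294 CPM. Their part in the H2-Eb1 result was not tested. The rise of H2-Eb1 in medulla ran from 1.08 to 8.48 log2 over the alternative settings. Its highest value came without the 19 cells described next, with cortex near 0. Without the 19 cells that held 2 or more UMIs of B cell or macrophage markers other than MHC class II genes, Nkg7 fell by 5.01 log2 in medulla (edgeR adjusted p = 0.0150). Ifi27l2a, an interferon-induced gene, rose by 2.73 log2 in IM (SE 0.54, adjusted p = 0.00348), and all 21 of its Bonn IM UMIs were in 1 cell. The genes with the next smallest p missed the threshold, namely H2-Eb1 and Got1, an aspartate aminotransferase, in IM against cortex (adjusted p = 0.0830 for both) and Tnf in OM against IM (adjusted p = 0.0596).

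**Figure D5:**
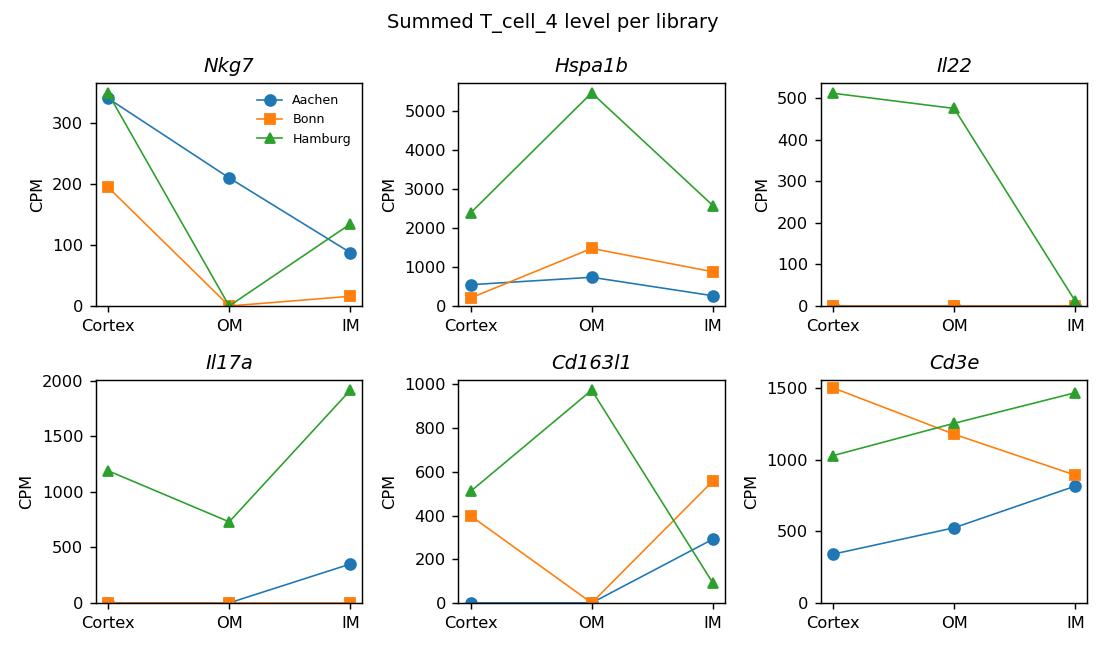
Summed T_cell_4 level in CPM for 6 genes in each library, by compartment, with lines joining the compartments of a facility. Aachen cortex (8 cells) and Bonn OM (2 cells) are drawn but were not in the fit, and for Il22 the Aachen and Bonn points lie on each other at 0. Nkg7 was highest in cortex in each facility, and Cd163l1 was highest in IM in Aachen and Bonn and in OM in Hamburg.

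The cells with both Tcrg-V6 and Trdv4 were 5 of 23, 1 of 2 and 4 of 16 in Bonn cortex, OM and IM, and 7 of 28, 12 of 27 and 1 of 19 in Hamburg. Their share was highest in OM in both facilities, on 2 cells in Bonn, and lowest in cortex in Bonn and in IM in Hamburg. Tcrg-V6 and Trdv4 did not pass in OM against IM, with log2 fold changes of 1.60 (SE 0.46, edgeR adjusted p = 0.196) and 2.10 (SE 0.65, adjusted p = 0.316), nor did Cd163l1 (1.41, SE 0.50, adjusted p = 0.664). Bonn OM was outside the fit and Aachen held no receptor transcripts, so the OM level of both V genes came from Hamburg alone. For Cd163l1 the log2 difference of OM from IM was 3.04 in Hamburg but -3.40 in Aachen. These fold changes were thus not replicated over facilities. Il17a was at 1189, 729 and 1913 CPM in Hamburg cortex, OM and IM and at 0, 0 and 350 CPM in Aachen. Its log2 fold change in OM against IM was -1.58 (SE 0.44, adjusted p = 0.184), which did not pass either.

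The medulla effect in T_cell_4 was compared with that in the sum of T_cell_1 to T_cell_3 from the same libraries. The difference passed in 4 of 5815 genes (0.0688%, edgeR), namely Nkg7, Il17a, Ccl1 and Trbv1. For Nkg7 the log2 difference of medulla from cortex was -1.14, -2.58 and -2.39 in Aachen, Bonn and Hamburg T_cell_4, and -0.13, -0.12 and 0.00 in the other T cell clusters, so the fall was larger in T_cell_4 in each facility (interaction -3.49, SE 0.68, edgeR adjusted p = 0.00183). The Aachen and Bonn differences include the Aachen cortex and Bonn OM libraries, which the fit left out.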

How the data were processed

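The deposited table held 1 row per cell with its cluster, compartment and facility, and estimated counts of UMIs for 32886 genes, which the authors made with Cell Ranger on mm10 and Seurat (versions not given in the labels) after keeping cells by gene number and mitochondrial share. The deposited counts were whole in Aachen and Bonn, but only 0.118% of the nonzero Hamburg values were, so the unit is expected counts, rounded for count models. How doublets and free RNA were treated was not given in the sources used here, and cluster names are the authors' own.

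Counts were summed per cluster and facility, or per library, and given as CPM. Folds are ratios of the means over facilities with counts, and log2 ratios between clusters add 5 CPM. Compartments were tested with edgeR 4.0.16 (R 4.3.3, quasi-likelihood, TMM, filterByExpr, facility as block, Benjamini-Hochberg adjustment) in libraries of at least 10 cells. DESeq2 1.42.0 was an alternative. The block is the facility, which the table itself gives, and 2 residual degrees of freedom remained. Python 3.11.15 was used for the rest. The scripts were tested on simulated data.

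Members and gene lists were chosen with earlier results of these data known. Named were list members at 50 CPM or more that differed at least 2-fold from the other T cell clusters, lineage-defining genes, the 20 genes with the highest and 10 with the lowest ratio, Cd3e and Cd3d, and for compartments the genes past the threshold in the same direction in 3 facilities, list members past it, and the 5 smallest p where fewer than 5 passed. Some items are not reported here.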

Additional observations from a re-analysis of the deposited data

Results flagged for a closer look

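The medulla effect differed between T_cell_4 and the sum of T_cell_1 to T_cell_3 in 4 genes, by edgeR's interaction term with adjustment over all genes tested. For Nkg7, a cytotoxic granule gene, the difference was -3.49 log2 (edgeR adjusted p = 0.00183), with T_cell_4 lower in medulla in 3 of 3 facilities. The Aachen and Bonn directions include the Aachen cortex and Bonn OM libraries, which the fit left out. For Il17a it was -4.14 log2 (SE 0.90, adjusted p = 0.0121). The log2 difference of medulla from cortex for Il17a was 1.82 in Aachen T_cell_4 and -0.01 in Hamburg T_cell_4, against 2.83 in the other Hamburg T cells, where 8 T_cell_1 cells and 1 T_cell_3 cell held it, and it was at 0 in Bonn, so the comparison rests on Hamburg. For Ccl1, a chemokine gene, it was -10.26 log2 (SE 2.29, adjusted p = 0.0153), and its 12 T_cell_4 UMIs were all in 1 Hamburg cortex cell. For Trbv1 it was -2.06 log2 (SE 0.49, adjusted p = 0.0318), with log2 differences of 0.70 in Bonn and -1.43 in Hamburg T_cell_4 and counts in 9 cells. Ccl4 had the next smallest p and missed the threshold (-3.16 log2, adjusted p = 0.0860).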

How the results depend on the processing

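The counts of genes that differed between compartments in T_cell_4 were small and changed with nearly every choice. The reported counts were 5 for the whole medulla and 5 for OM, each set against cortex, then 3 for IM set against cortex and 4 between OM and IM, and the values below keep that order. Without the replicate block they were 0, 0, 0 and 0 (11, 8, 14 and 9 genes at an unadjusted p under 0.05, edgeR), after thinning cells to 500 UMIs 0, 0, 0 and 0 (11, 9, 9 and 10), and by DESeq2 0, 0, 0 and 1 (14, 16, 15 and 12). DESeq2's size factors in edgeR gave 1, 1, 2 and 2, all genes with a count 9, 6, 4 and 2, and leaving out the 19 cells with 2 or more B cell or macrophage UMIs 5, 3, 0 and 0. Added after seeing the data, all 9 libraries gave 1, 1, 1 and 0, and leaving out the Aachen OM library gave 1, 1, 0 and 0. Leaving out a facility gave 5 to 17, 2 to 18, 3 to 14 and 3 to 9, the highest without Aachen. Without Hamburg no residual degrees of freedom remained. The interaction count of 4 was 2 with T_cell_1 alone, 2 with T_cell_2 alone, 8 with T_cell_3 alone, and 1 to 9 without a facility (1 without Bonn, 9 without Aachen). Nkg7 kept its call in 7 of 9 alternatives in both of its contrasts, lost it by DESeq2 and without the block, and was not tested after thinning (adjusted p from 2.90e-10 to 0.9997 in medulla). Junb kept its call in 0 of 10. No gene fold change changed sign (47 kept and 105 lost the call). The share among T cells stayed at 1.54 to 1.66 points without a facility. The share of all immune cells was -0.0856 to 0.0831 points, turning to -0.0856 without Aachen. Leaving out Hamburg moved the log2 ratio of Il17a to 5.39.

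Depth limits these results. Summed Aachen T_cell_4 held 58519 UMIs, against 180761 in Bonn and 349628 in Hamburg, and no Aachen cell of any type held receptor transcripts. The compartment fit had 2 residual degrees of freedom and median standard errors of 0.41 to 0.54 log2.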
